A study of Helianthus annuus with 15 samples.

Results

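The axil of sunflower (Helianthus annuus) was compared with the root across all measured genes, using 3 axil and 3 root libraries of the 15 mRNA libraries in the series. The other 9 libraries, 3 each of stem, leaf and flower, entered the estimate of the spread and show where those tissues lie for the genes that separate axil from root. Of 63411 identifiers in the table of FPKM values (fragments counted per gene, scaled by gene length and by the reads of the library), 34586 reached at least 1 FPKM in 3 or more of the 15 libraries and were tested, and 12844 had no read in any library. For every sample the labels give the tissue and a replicate number, and they name no treatment. The cultivar, the age of the plants and how they were grown are not stated in the labels. Neither is it stated that replicates were different plants. A p-value here thus rests on library-to-library spread, part or all of which may be technical.

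The axil is the upper angle between a leaf and the stem, and it holds the axillary meristem, from which a bud and then a side branch can form. It is thus a shoot tissue with green cells and dividing cells close together. The root takes up water and mineral ions, does not photosynthesise in most plants, and grows from its own apical meristem. Shoot branching, named in the title of the study, starts in the axil. The question that this pair addresses is which genes are used in the branching site and not in the root, and the reverse.

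Library totals lay between 12087704 and 14549230 reads in the 6 libraries compared. At the shallowest of them, 3 reads on a gene of 1000 nt amount to 0.248 FPKM. The table gives no gene products, and 0 of its identifiers matched the RefSeq gene table of another assembly. The labelled tissues could therefore not be checked against marker genes, and identifiers are given as deposited, with the chromosome number that each carries. Libraries grouped by tissue: across the genes tested, the Pearson correlation of log2(FPKM + 1) was 0.922 to 0.965 between axil libraries, 0.942 to 0.960 between root libraries and 0.690 to 0.737 between an axil and a root library. No library repeated another, since counts of the closest pair within a tissue gave a chi-square of 19.9 per degree of freedom.

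Axil and root differed in 8616 genes, 24.9% of those tested. A gene was called at an adjusted p under 0.05 in limma, with Benjamini-Hochberg adjustment over all genes tested, together with an absolute log2 difference of at least 1. In the axil 4753 genes were higher (13.7%) and 3863 were lower (11.2%). The median log2 difference over all genes tested, axil minus root on the log2(FPKM + 1) scale, was 0.10. Most differences were moderate. Of the genes higher in axil, 2884 (60.7%) differed by less than 2 on the log2 scale, 1507 by 2 to 4, 292 by 4 to 6 and 70 by 6 or more. Of the genes lower in axil, 2085 (54.0%) differed by less than 2, 1423 by 2 to 4, 301 by 4 to 6 and 54 by 6 or more. The median standard error of the log2 difference was 0.27 among the genes higher and 0.27 among the genes lower in axil. In bulk tissue, a lower level through fewer cells of a type and through less RNA per cell cannot be told apart.

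**Figure D1:**
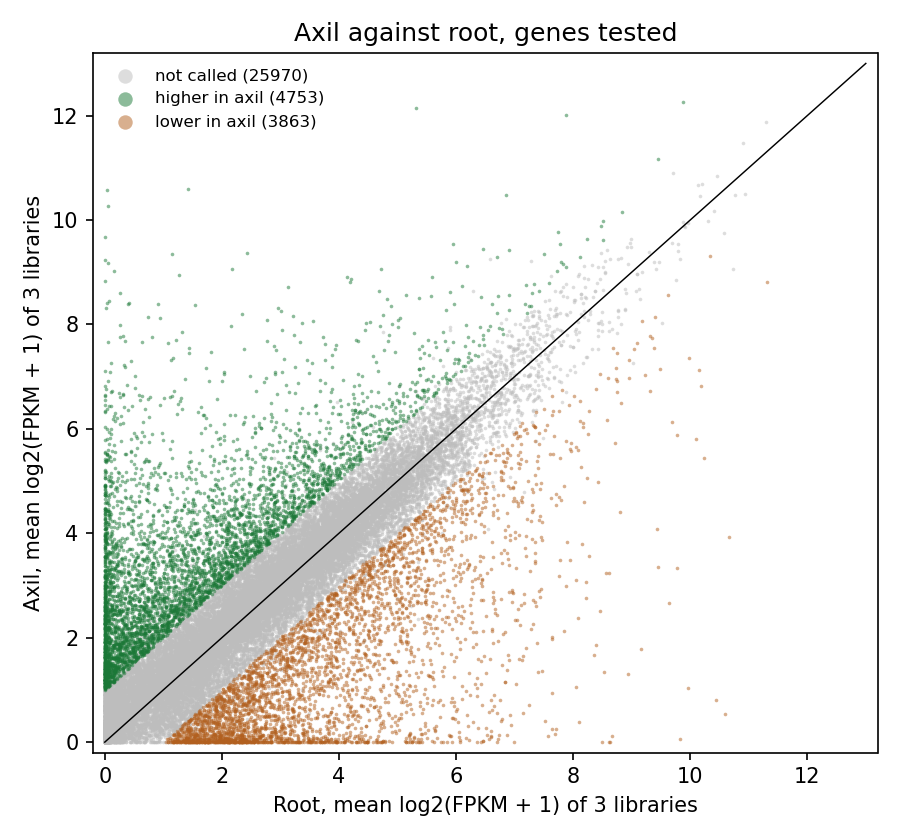
Each point is 1 of the 34586 genes tested, at its mean log2(FPKM + 1) over 3 root libraries (x) and 3 axil libraries (y), and the line marks equal levels. Called genes are green where higher in axil (4753) and brown where lower (3863), and many of both lie along an axis, with almost no expression in the other tissue.

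The libraries of the 2 tissues were fully separated in more genes than were called. All 3 axil libraries stood above all 3 root libraries in 10563 genes (30.5%) and below them in 7801 (22.6%), 18364 together (53.1%). Of the genes called, 4616 of those higher and 3753 of those lower in axil were separated in this way, and the other 137 and 110 had overlapping libraries. A further 5968 genes passed the adjusted p with a log2 difference under 1. Of the 25970 genes not called, the 95% interval of the log2 difference lay wholly between -1 and 1 for 16448 (63.3%), and for 9522 it reached past one of these bounds, so for those a difference of that size was not resolved.

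The share of genes called varied with abundance. Among the 840 genes with a mean of 100 FPKM or more over the 6 libraries, 162 (19.3%) were higher and 138 (16.4%) lower in axil. Among the 5059 genes with a mean under 1 FPKM the shares were 6.0% and 3.2%, where few reads and the added 1 FPKM limit the size of any difference. The called genes had a shorter median length, which was not tested: the length implied by the FPKM values had a median of 1338 nt for genes higher in axil, 1433 nt for genes lower and 1539 nt for all genes tested.

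The share of reads on the called genes was also taken per library. The 4753 genes higher in axil took 20%, 22% and 21% of the reads of Axil 1, 2 and 3, and 4.1%, 4.1% and 4.5% of those of Root 1, 2 and 3. The 3863 genes lower in axil took 4.6%, 4.1% and 5.0% of the axil reads and 24.4%, 24.7% and 21.3% of the root reads. These genes were chosen on the same values, so the gap between axil and root is a description. The levels of stem, leaf and flower entered the choice through the filter and the pooled spread, not through the difference itself, and with the 6 axil and root libraries alone 4471 genes were called higher and 3587 lower. Genes higher in axil than root took 19.7% to 22.1% of the reads in stem, 22.9% to 24.3% in flower and 30.7% to 35.2% in leaf. Each flower and each leaf library exceeded every axil library. Genes lower in axil took 4.6% to 5.9% of the reads in stem, leaf and flower, close to their share in axil, though each stem library exceeded every axil library. No small group of genes carried these shares: the 10 called genes with most reads held 1.9% to 2.4% of the axil reads and 1.9% to 2.6% of the root reads.

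**Figure D2:**
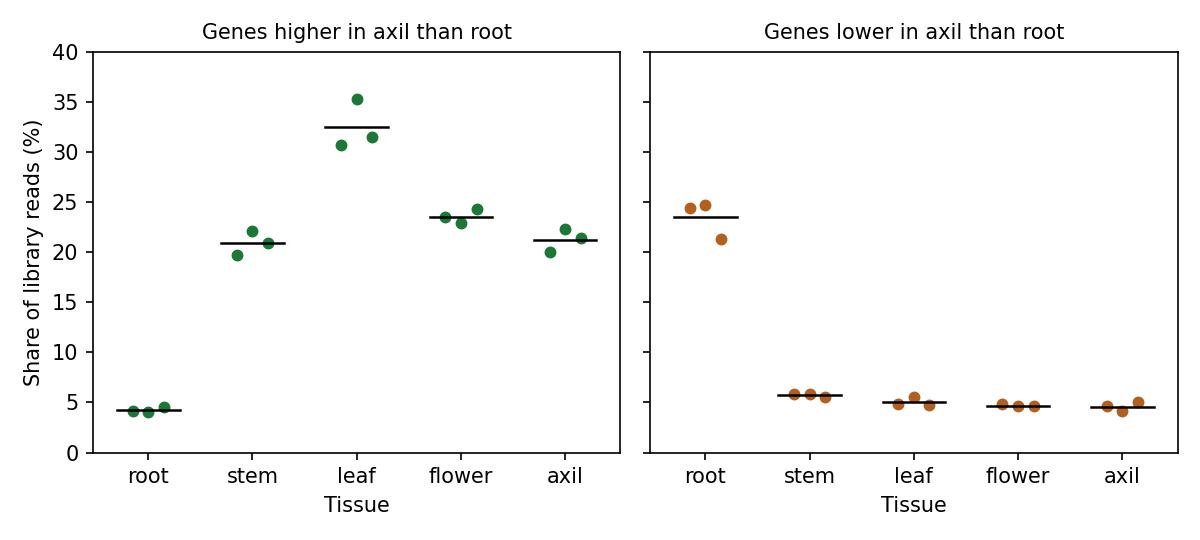
Share of each library's reads (y, %) that fell on the genes higher in axil than root (left) and lower in axil than root (right), with 1 point per library and a line at the mean of 3. In the left panel root lies near 4% and leaf at 30.7% to 35.2%, and in the right panel the 4 shoot tissues lie at 4.1% to 5.9% and root at 21.3% to 24.7%.

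For each called gene, the other 3 tissues were placed on a scale from the root mean (0) to the axil mean (1), on log2(FPKM + 1). The 2 directions looked unlike on this scale. Among genes lower in axil, the other shoot tissues mostly lay on the axil side: in 2745 of 3863 (71.1%) stem, leaf and flower were all nearer to axil than to root. A tissue nearer to axil can still hold the gene at a high level. Genes higher in axil were more mixed. In 2072 of 4753 (43.6%) the 3 tissues were all nearer to axil, and in 720 (15.1%) they were all nearer to root, so that the axil stood away from every other tissue on the root side. That second pattern was rare among genes lower in axil, with 79 of 3863 (2.0%). Without Axil 1 it held 132 genes. The difference between axil and root, which sets the ends of the scale, was also what the genes were selected on, and the other libraries entered the filter and the spread, so the counts for stem, leaf and flower are given without a test.

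**Figure D3:**
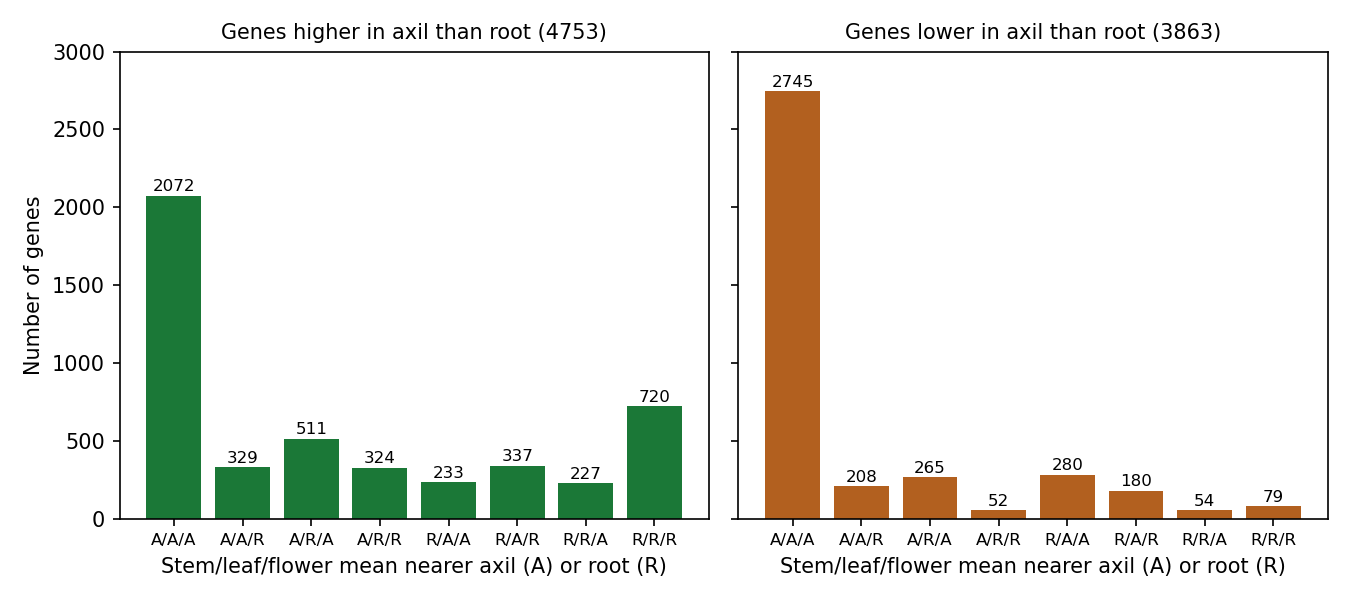
Number of called genes (y) by whether the mean of stem, leaf and flower, in that order, was nearer to axil (A) or to root (R) on the log2(FPKM + 1) scale, for the 4753 genes higher (left) and 3863 genes lower in axil (right). The pattern with all 3 nearer to axil holds 2072 and 2745 genes, and that with all 3 nearer to root holds 720 and 79.

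Between these extremes, genes higher in axil split among the tissues. In 511 the stem and flower were nearer to axil and the leaf to root, in 329 stem and leaf were, and in 233 leaf and flower were. The leaf alone was nearer to axil in 337, the stem alone in 324 and the flower alone in 227. Taken singly, 68.1% of the genes higher in axil had the stem nearer to axil, 64.0% the flower and 62.5% the leaf. For the genes lower in axil these shares were 84.6% for stem, 86.6% for flower and 88.4% for leaf. All 3 tissues were nearer to axil more often where axil and root differed more. The same difference sets the length of the scale, so library noise crosses its midpoint more easily where it is small. The trend was not tested. Among genes higher in axil, all 3 tissues were nearer to axil in 40.2% of those with a log2 difference of 1 to 2 and in 63.5% of the 362 with 4 or more. Among genes lower in axil the shares were 62.1%, and 91.8% of 355.

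The axil was the extreme tissue in a minority of the called genes of each direction, though more often than over all genes tested. By the choice of genes, root was never the peak of those higher in axil nor the lowest of those lower in axil. That raises the shares of the other tissues. The choice also used the same axil libraries, which by itself raises the share with axil as the extreme. Of the genes higher in axil than root, the axil had the highest mean of the 5 tissues in 1671 (35.2%), the leaf in 1330 (28.0%), the flower in 997 (21.0%) and the stem in 755 (15.9%). The root had the lowest mean in 3613 of them (76.0%). Of the genes lower in axil, the root had the highest mean in 3365 (87.1%). The lowest mean was in flower for 1274, stem for 1112, leaf for 891 and axil for 586 (15.2%). Over all 34586 genes tested, the axil had the highest mean in 20.6% and the lowest in 8.2%.

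The contrasts of stem, leaf and flower with the root used the same fit and the same root libraries, so they are not independent of the calls between axil and root and are set beside them. Of the 4753 genes higher in axil than root, 2890 were also called higher in stem than root, 2853 in flower and 2726 (57.4%) in leaf. Over all genes tested, 18% were higher in stem than root, 20.7% in flower and 14.4% in leaf. Of the 3863 genes lower in axil, 3228 (83.6%) were also lower in leaf than root, 3188 (82.5%) in flower and 3070 (79.5%) in stem, where 16%, 17.5% and 15% of all genes tested were. A call against root in the opposite direction was made for 85 of the genes higher in axil in stem, 101 in leaf and 166 in flower.

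Measured against the axil itself, calls went in both directions, in several cases at about the share over all genes tested. Among genes higher in axil than root, axil exceeded stem in 1311 (27.6%), leaf in 1489 (31.3%) and flower in 1521 (32.0%). Over all genes tested axil was higher than stem in 9.5%, than leaf in 10.4% and than flower in 13.3%. The genes were chosen for high values in the same axil libraries, which by itself raises their shares above these. In the same 4753 genes axil was itself exceeded by stem in 550 (11.6%), by leaf in 888 (18.7%) and by flower in 876 (18.4%), and over all genes tested axil was lower than these tissues in 10.7%, 7.88% and 13.6%. Among genes lower in axil than root, axil was called below stem in 541 (14%), leaf in 386 (9.99%) and flower in 432 (11.2%). Over all genes tested these shares were 10.7%, 7.88% and 13.6%. The choice of genes for low values in the same axil libraries by itself raises the shares with axil below. In the same genes axil was called above stem in 452 (11.7%), leaf in 361 (9.3%) and flower in 648 (16.8%), where 9.5%, 10.4% and 13.3% of all genes tested were. Called in this way, 1798 genes higher in axil (37.8%) were higher than root in all 4 shoot tissues, and 589 (12.4%) were higher in axil than in every other tissue. The 2 classes shared 20 genes. On the other side, 2509 genes (64.9% of those lower in axil) were higher in root than in each other tissue, and 46 (1.2%) were lower in axil than in each other tissue.

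For each of these 4 classes, the gene with the largest difference of mean FPKM between axil and root was taken as an example. These 4 genes were chosen for their difference, so their values are given as a description, with limma's statistics for size and error. HannXRQ_Chr08g0235781, on chromosome 8 and 497 nt long, stands for genes used throughout the shoot. It was at 6900, 3369 and 2988 FPKM in Axil 1, 2 and 3 and at 433, 186 and 163 FPKM in Root 1, 2 and 3. The axil libraries lay far above the root libraries, with Axil 1 and Root 1 the highest of their groups. Stem held the most of it, 15923 to 17408 FPKM, followed by leaf with 5115 to 7561 and flower with 2401 to 3075. The log2 difference of axil and root was 4.12 ± 0.50 (SE; limma adjusted p = 2.12e-05), and axil minus stem was -2.01 ± 0.50 (SE; limma adjusted p = 0.00697).

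HannXRQ_Chr16g0507011, on chromosome 16 and 653 nt long, stands for genes highest in the axil. Its values were 1444, 8306 and 7640 FPKM in Axil 1, 2 and 3, with Axil 1 well below the other axil libraries, and 30.4, 55.6 and 34.9 FPKM in Root 1, 2 and 3. Stem reached 502 to 910 FPKM and leaf 565 to 1283, whereas flower stayed at 27.2 to 74.3, overlapping the root. Axil exceeded root by 6.82 ± 0.60 on the log2 scale (SE; limma adjusted p = 1.05e-06), and all 3 axil libraries lay above every library of the other tissues.

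HannXRQ_Chr02g0052221, on chromosome 2 and 2556 nt long, stands for genes highest in root. It was at 3469, 2106 and 2253 FPKM in Root 1, 2 and 3 and at 615, 282 and 512 FPKM in Axil 1, 2 and 3. The leaf libraries were at 720 to 1395 and the flower libraries at 214 to 248 FPKM. Stem was split: Stem 1 and 3 were at 503 and 659 FPKM, while Stem 2 was at 2629, within the range of the root. The stem mean was 1264 FPKM with Stem 2 and 581 without it. Axil minus root came to -2.51 ± 0.53 on the log2 scale (SE; limma adjusted p = 0.00192). Stem minus root was -1.41 ± 0.53 (SE; limma adjusted p = 0.0382) and leaf minus root -1.44 ± 0.53 (SE; limma adjusted p = 0.0374). Its place in the class thus rests on 2 calls near the threshold.

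HannXRQ_Chr11g0350921, on chromosome 11 and 1995 nt long, stands for the 46 genes called lower in axil than in each other tissue. It was at 164, 158 and 82.0 FPKM in Root 1, 2 and 3 and at 1.32, 1.45 and 0.783 FPKM in Axil 1, 2 and 3, which rests on 34, 35 and 19 reads. Stem held 1.92 to 5.39 FPKM, leaf 10.4 to 13.7 and flower 11.1 to 15.4, so the axil libraries were below all others. Stem, leaf and flower were also called below root, by log2 differences of -4.81, -3.27 and -3.15, so the gene belongs to the class highest in root as well. Axil minus root came to -5.91 ± 0.30 on the log2 scale (SE; limma adjusted p = 5.65e-09).

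NAC83 (HannXRQ_Chr17g0568801, chromosome 17), of the plant-specific NAC family of transcription factors, is the identifier whose 5 tissue means match those beside the name NAC83 in the table. It was not among the genes called. Its values were 24.8, 40 and 67.7 FPKM in Axil 1, 2 and 3 and 19.2, 54.8 and 48.7 FPKM in Root 1, 2 and 3, so the libraries interleaved. The log2 difference of 0.13 ± 0.43 (SE; limma adjusted p = 0.852) was smaller than the spread between libraries.

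**Figure D4:**
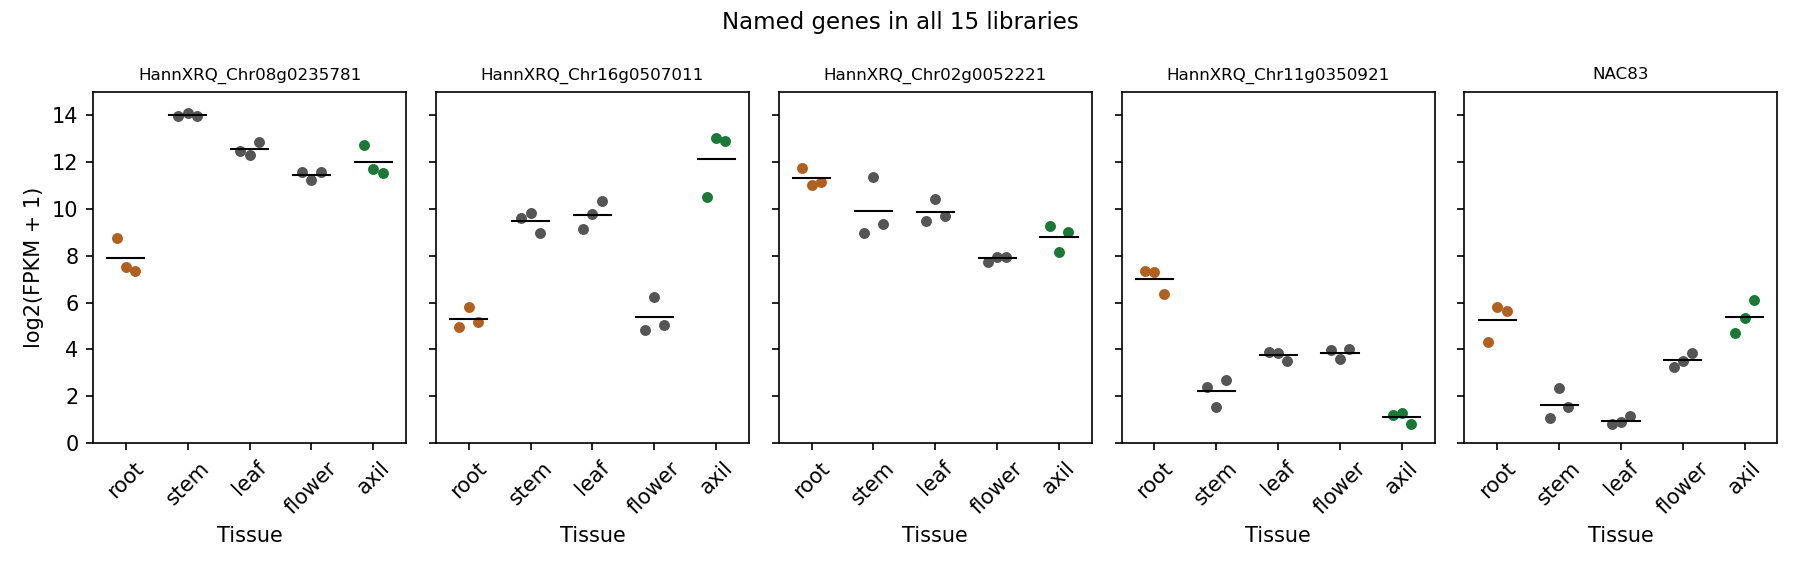
log2(FPKM + 1) (y) of the 4 example genes and NAC83 in each of the 15 libraries, by tissue (x), with root in brown, axil in green and a line at the mean of 3. The first gene is high in all 4 shoot tissues, the second is highest in axil, the third highest in root with Stem 2 beside it, the fourth lowest in axil, and NAC83 overlaps between axil and root.

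The axil libraries did not vary alike in the different classes. In the 589 genes for which axil exceeded all others, Axil 1 was the lowest of the 3 axil libraries in 329 (55.9%) and Axil 3 the highest in 317 (53.8%). In the 1798 genes higher in all 4 shoot tissues than in root, Axil 3 was the lowest in 1142 (63.5%) and Axil 1 the highest in 864 (48.1%). Over all 4753 genes higher in axil, Axil 1 was the lowest in 36.3% and the highest in 42.4%. Axil 3 was the lowest in 49.9% of them and the highest in 27.9%. The order in the shoot-wide genes was thus partly that of the whole called set. Beside that set, Axil 1 was more often the lowest in the axil-high genes, and Axil 3 in the shoot-wide genes. Calls were made again with each of the 6 libraries left out in turn. Of the genes called, 3688 of those higher (77.6%) and 3170 of those lower in axil (82.1%) had the same call in all 6 fits.

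Some genes were abundant in one of the tissues and nearly silent in the other. A mean of at least 10 FPKM in axil with under 1 FPKM in each root library was found for 451 genes, of which 447 were called, and 92 had no read in any root library. The reverse, at least 10 FPKM in root and under 1 in each axil library, was found for 369 genes, of which 368 were called and 92 had no axil read. Counting an absence as 3 reads over the 3 libraries, the 92 genes without root reads were at least 26.6-fold higher in axil, and the median bound was 255-fold. For the 92 genes without axil reads the bounds started at 4.77-fold, with a median of 288-fold. Intervals and floors of this kind cover counting error only.

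The rest of the shoot again separated the 2 lists. Of the 451 genes nearly silent in root, 401 averaged 1 FPKM or more in stem, 390 in leaf and 388 in flower. In all 3 tissues 344 (76.3%) did so, and 16 (3.5%) in none. Their median levels were 21.0 FPKM in axil, 14.2 in stem, 19.1 in leaf and 19.7 in flower. Of the 369 genes nearly silent in axil, 259 (70.2%) stayed under a mean of 1 FPKM in stem, leaf and flower as well, and 9 (2.4%) reached it in all 3. Their median level was 19.8 FPKM in root and 0.0461, 0.0584 and 0.0407 FPKM in stem, leaf and flower. In single stem, leaf or flower libraries, 26485 to 28487 of all identifiers reached 1 FPKM, beside 34586 genes tested. Such a level was thus common in the shoot, but the share of all genes tested with it in all 3 tissues, or in none, was not counted. Genes of either list could also pass the filter through the tissue where they are high. The shares of both lists are therefore not read as particular to them. As a description, 259 of the 369 genes nearly silent in axil stayed under 1 FPKM in the rest of the shoot too.

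Called genes were spread over all 17 chromosomes. The share higher in axil ran from 11.7% on chromosome 7 to 15.9% on chromosome 17, and the share lower from 9.9% on chromosome 15 to 13.5% on chromosome 4. Of 32871 identifiers with a chromosome number, 13.9% were higher and 11.2% lower in axil. A further 1383 identifiers carry a running number and no chromosome, unplaced, ENSRNA, CP or MT tag. Of these, 150 were higher (10.8%) and 162 lower (11.7%). Of 234 ENSRNA identifiers, the noncoding RNA class, 13 were higher and 14 lower, and of 72 unplaced ones 5 and 4. The 5 CP and 21 MT identifiers tested, the usual tags of chloroplast and mitochondrial genes, were not called either way.

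Shares of reads were also compared per kind of identifier. An exact permutation test of 3 against 3 libraries cannot give p under 0.1, so no kind could pass 0.05 and the shares are a description. Identifiers with a running number and none of the other tags took 0.756%, 0.691% and 0.680% of the reads in Axil 1, 2 and 3. In Root 1, 2 and 3 they took 1.2%, 0.888% and 1.01%, with no overlap. CP identifiers had 36, 24 and 24 reads in the axil and 5, 3 and 5 in the root, again with no overlap. Unplaced identifiers took 0.0445% to 0.0498% of axil and 0.0515% to 0.0544% of root reads. In a two-sided exact permutation test each of these 3 kinds gave p = 0.1, the smallest that 3 against 3 libraries allow, and 0.167 after Benjamini-Hochberg adjustment over 5 kinds. The ENSRNA and MT shares overlapped between axil and root (exact permutation p = 1 and p = 0.3).

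Genes called the same way also stood next to each other in identifier number. Chromosomal genes tested were put in the order of their numbers, which gave 32854 pairs of neighbours. After a gene higher in axil, the next was also higher in 817 of 4584 pairs (17.8%), against 13.9% over all pairs. After a gene lower in axil, the next was also lower in 730 of 3678 pairs (19.8%), against 11.2% over all pairs. The next gene was called the opposite way in 9.6% and 10.9%. Near-identical neighbours can share reads, and the labels do not say how such reads were counted, so values within a run of neighbours may not be fully separate measurements.

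The longest runs were singled out after their values were seen. On chromosome 13, 9 consecutive tested genes were higher in axil. Their summed level was 1067, 8238 and 4570 FPKM in Axil 1, 2 and 3 and 0.289, 0.161 and 0.161 FPKM in Root 1, 2 and 3, where the root values rest on 4, 2 and 3 reads. Stem was next with 1308 to 2672 FPKM, above leaf (283 to 505) and flower (199 to 285), and it overlapped the axil through Axil 1. On chromosome 1, 6 neighbours showed the same order of axil libraries, with summed levels of 282, 2037 and 1398 FPKM, and 0, 1 and 1 reads in Root 1, 2 and 3. All 6 were nearer to axil in stem, leaf and flower. Axil 1 lay below every stem (368 to 785 FPKM) and every flower library (331 to 418) and within the range of leaf (206 to 505).

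Other runs had other shapes in the shoot. On chromosome 13, a further 6 neighbours were at 52.4 to 60.1 FPKM in axil and 0.835 to 2.58 in root, with every stem library (134 to 296) and every flower library (63.7 to 88.9) above the axil and every leaf library (11.6 to 55.7) below the highest axil library. On chromosome 17, 7 neighbours summed to 382, 142 and 77.2 FPKM in Axil 1, 2 and 3, well above 7.42 to 9.14 in root but below every stem (1384 to 2539), leaf (1232 to 1893) and flower library (1106 to 1306). On chromosome 10, 7 neighbours were at 254 to 301 FPKM in axil, 22.3 to 27.8 in root and 150 to 320 across stem, leaf and flower. Among runs lower in axil, 6 neighbours on chromosome 11 summed to 79.2, 31.0 and 34.1 FPKM in Root 1, 2 and 3 and to at most 1.73 FPKM in any shoot library. On chromosome 3, 6 neighbours were at 270 to 431 FPKM in root and 38.8 to 66.0 in axil, and Leaf 1, at 159 FPKM, stood well above the other leaf libraries (16.1 and 20.8).

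**Figure D5:**
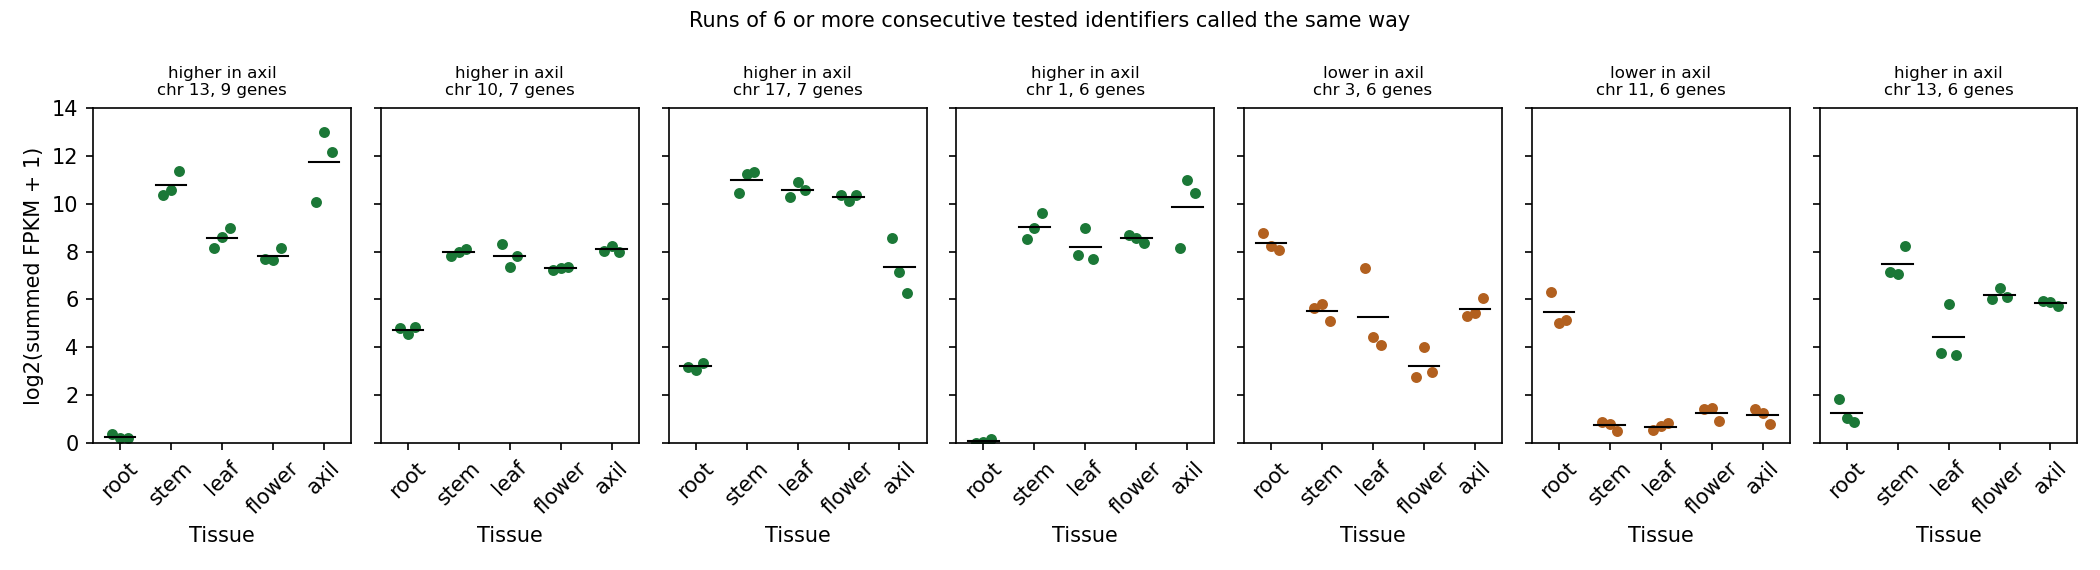
log2(summed FPKM + 1) (y) in each library, by tissue (x), of the 7 runs of 6 or more consecutive tested identifiers called the same way, green where higher and brown where lower in axil, with a line at the mean of 3. The runs on chromosomes 13 (9 genes) and 1 are near 0 in root and highest in Axil 2 and 3, the run on chromosome 17 is lower in axil than in the other shoot tissues, and the run on chromosome 11 is near 0 outside the root.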

How the data were processed

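mRNA was sequenced from 5 sunflower tissues, 3 libraries each, grouped by their tissue label. Per the labels' protocols, RNA was captured with oligo(dT) beads, fragmented and ligated to adaptors carrying molecular identifiers. The labels do not say whether reads were collapsed by them, and name no aligner, build or annotation. The submitters' processing notes list HTSeq 0.6.1. The authors deposited FPKM per library and means per tissue. A further 16 unnamed columns with cells beside the table were not used, apart from the name NAC83, paired by its tissue means.

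Whole reads, totals and gene lengths were worked out from the step sizes of the deposited FPKM. Values counted as whole within 1e-06 plus 5e-07 of the reads, and lengths within 0.01 nt, which 99.0% of 50567 identifiers with reads met at once and the rest after a common factor. Recovered reads made up 99.975% or more of each total.

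Log2(FPKM + 1) was fitted with limma 3.58.1 (eBayes with trend, R 4.3.3) on all 15 libraries, tested on simulated data, with Benjamini-Hochberg adjustment over 34586 genes. Example genes were the largest difference of mean FPKM per class, among called genes with at least 5 FPKM in each library of the higher tissue, no overlap between groups and at least 300 nt. At most 2 identifiers per direction were taken because identifiers have no names. Gene lists by product matched 0 identifiers and were not analysed here. The comparison, rules and lists were chosen with earlier results of these data known. Alternatives covered the pseudocount, filter, scaling, variance model, replicate block, thresholds, voom on recovered reads and leaving out each library. Other steps used Python 3.11.15.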

Additional observations from a re-analysis of the deposited data

How the results depend on the processing

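Of 156 recomputed counts over 30 settings, 138 stayed within 1.5 times their reported value. A pseudocount of 5 FPKM gave 2300 genes higher and 2102 lower in axil. Of these, stem, leaf and flower were all nearer axil in 982 and 1656, and all nearer root in 410 and 20. Adjusted p alone gave 8338 and 6246, a log2 difference of at least 2 gave 1869 and 1778, and a filter of 5 FPKM gave 2569 lower, thresholds that move counts by construction. The small class lower in axil with all 3 tissues nearer root, 79 genes, held 171 with a pseudocount of 0.1 FPKM and 124 with median-of-ratios scaling. It ranged from 55 to 132 when each library was left out, highest without Axil 1; the cause was not tested. Genes nearly silent in root numbered 820 and those nearly silent in axil 678 at a mean of 5 FPKM, and 92 and 92 where silence meant 0 FPKM. The excess of genes higher in axil (55.2% of calls) shrank to 50.2% with median-of-ratios scaling (4201 and 4171) and 50.2% with quantile normalization (4278 and 4251). Libraries scaled to the same sum gave 51.6% (4498 and 4220). The excess grew with a pseudocount of 0.1 FPKM (6348 and 4414), voom on recovered reads (6190 and 4430) and a filter of 5 FPKM (3811 and 2569). Leaving out 1 library gave 4392 to 4979 higher and 3676 to 3951 lower.

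The 4 example genes kept their direction and their call between axil and root in all 23 settings run for each. NAC83 was not called in any and ranged from -0.34 (without Root 1) to 0.47 (without Axil 1), also turning to -0.23 without Axil 3. Replicate numbers did not pair the libraries: deviations of same-numbered axil and root libraries correlated at 0.09, -0.05 and -0.18, and a fit with a replicate block gave 4705 higher and 3827 lower. Depth limits genes near the floor, on which pseudocount and filter act.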
